A study of Homo sapiens with 8 samples.

Results

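In surface ectoderm derived from H9 human embryonic stem cells, 725 of the 8154 sites that the authors list as opened by morphogens lay in 109 windows of 1 Mb without a single site of the authors' second list, the sites opened by morphogens and closed by p63. The windows were chosen by the lists themselves: a fixed autosomal window qualified if it held the centres of 5 or more sites of the first list ("opened sites") and of 0 sites of the second ("p63-closed sites"). Both lists together hold 14191 sites. The number of opened sites in a window and the absence of p63-closed sites there are therefore given as a description. These windows are called opened-only windows, and the other 420 windows with 5 or more opened sites, which also held p63-closed sites, are called mixed windows.

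ATAC-seq marks accessible DNA by letting the Tn5 transposase insert adapters where nucleosomes leave it bare, and such sites include promoters and enhancers. Surface ectoderm is the simple epithelium that gives rise to epidermis and its appendages. Retinoic acid acts through nuclear receptors and BMP4 through SMAD proteins, and together they move pluripotent cells towards this epithelium. TP63 encodes p63, a p53-family transcription factor needed for stratified epithelia, which can both open and close chromatin at the elements it binds.

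The series holds 8 samples in 4 groups of 2, all from the H9 line. The p63KO Day 7 cells (genotype p63-/-) and the wild-type WT Day 7 cells both received 1 uM RA and 5 ng/ml BMP4 for 7 days, and the WT Day 0 cells are undifferentiated stem cells. The p63GOF Day 0 cells (TetO:Tp63+/-) received 2 ug/ml doxycycline for 2 days without the morphogens, and no list analysed here is attached to them. The labels tie the opened list to WT Day 7 and WT Day 0 and the p63-closed list to p63KO Day 7 and WT Day 7. How many clones the knockout and inducible lines represent is not given in the sources used here. Each list gives only the position and a numbered name of a site, with no count, signal or p-value, so the depth is unknown, no value per sample or replicate exists and no test between cultures was made. The labelled cell types could not be set against marker genes for the same reason. Positions are 1-based on hg19; the gene table at hand is on GRCh38, so genes were not placed in the windows and no sequence is shown.

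Windows without p63-closed sites were not more common among windows rich in opened sites. Of the 529 autosomal windows with 5 or more opened sites, 109 held no p63-closed site, a share of 20.6% (exact 95% interval 17.2 to 24.3%). The share was 24.5% among the 1816 windows with 1 to 4 opened sites (22.5 to 26.6%). Windows with many opened sites were free of p63-closed sites slightly less often than windows with few, and the intervals overlap. The reverse case was rarer: of 380 windows with 5 or more p63-closed sites, 40 held no opened site, or 10.5% (7.63 to 14.1%). The lists differ in length, with 8154 opened and 6037 p63-closed sites.

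The number of opened sites told little about the number of p63-closed sites in the same window. Windows with 1 opened site held a mean of 2.14 p63-closed sites, and 25.5% of them held none (128 of 501; 21.8 to 29.6%). Windows with 5 opened sites held a mean of 2.35, and 23.0% held none (45 of 196; 17.3 to 29.5%). Windows with 10 or more held a mean of 2.42, and 22.8% held none (13 of 57; 12.7 to 35.8%). The intervals overlapped at every number of opened sites from 1 to 10 or more.

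**Figure D1:**
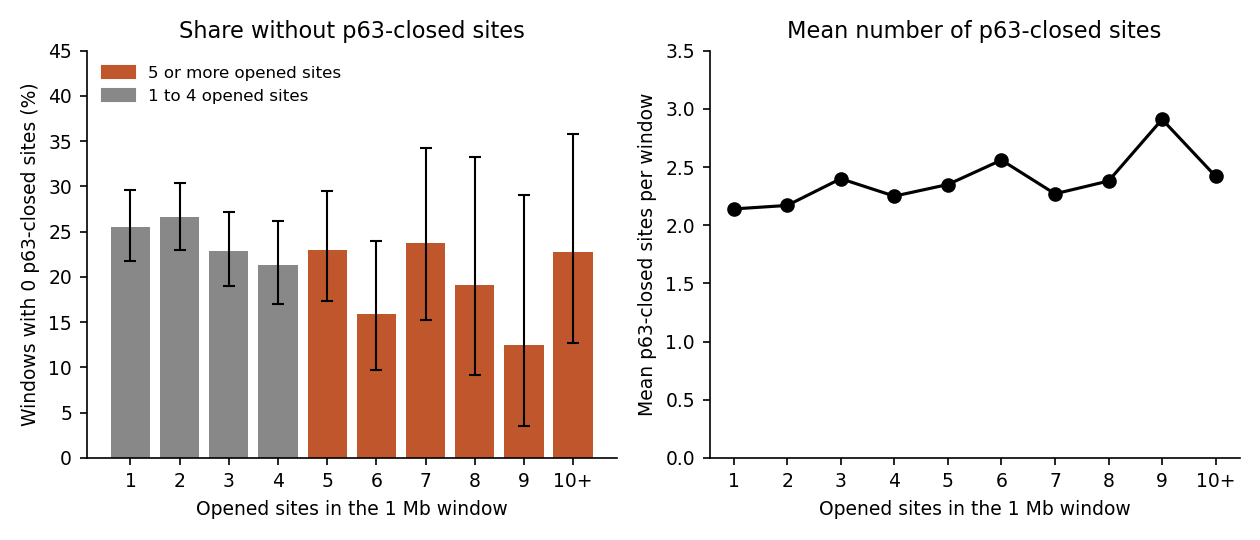
Left, the share of autosomal 1 Mb windows with 0 p63-closed sites (percent, bars) by the number of opened sites in the window, with exact 95% intervals for counting error; windows at or above the minimum of 5 are coloured. Right, the mean number of p63-closed sites per window on the same axis. The shares lie between 12.5% and 26.6% and the means between 2.14 and 2.91, with no steady trend.

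Most opened-only windows lay near the minimum: 45 of the 109 held exactly 5 opened sites, 18 held 6, 20 held 7 and 26 held 8 or more. The median was 6.0 opened sites in opened-only windows and 6.0 in mixed windows. Just outside the rule were 69 windows with 4 opened and 0 p63-closed sites, and 128 windows with 5 or more opened sites and exactly 1 p63-closed site, which held 854 opened sites. No p63-closed site with its centre outside an opened-only window reached into one, and 1 of the 725 opened sites crossed an edge of its window. Where windows begin mattered more. With windows begun 500 kb later, 109 windows again qualified, with 709 sites, but 252 sites were common to both sets, which is 34.8% of the 725 and 35.5% of the 709.

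The fullest opened-only window lay on chromosome 11 from 57000001 to 58000000 and held 18 opened sites between 57056089 and 57828016. Its sites formed a tight first group, in which 7 sites lay within 100 kb. The widest site of this group ran from 57089366 to 57093454 and measured 4089 bp, and its last ran from 57125266 to 57128566 and measured 3301 bp. A second group of 8 sites followed from 57364608 to 57567166, and 3 single sites lay outside the groups, at 57266078, 57705830 and 57825804. The nearest p63-closed site before the window was 110 kb from its edge, and the nearest after it 1067 kb.

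The window in second place, on chromosome 3 from 112000001 to 113000000, held 12 opened sites in an uneven arrangement. Its first 3 sites lay from 112344846 to 112361179, and 5 lay from 112866337 to 112914393, the widest of these with 3523 bp. The largest distance between neighbouring sites of the window was 180 kb. Dense groups of this kind were found in some windows only: 29 of the 109 opened-only windows (26.6%) held 4 or more opened sites within 100 kb, against 113 of the 420 mixed windows (26.9%).

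Windows within 5 Mb of the longest stretch of a chromosome without listed sites made up a part of the upper end. For each chromosome the widest distance between neighbouring sites of either list was taken; it had a median of 4.23 Mb and ran from 1.37 to 23.5 Mb over the 22 autosomes. Human chromosomes have long repeat blocks at the centromere in which short reads can seldom be placed, but centromere positions were not used here. Within 5 Mb of such an empty stretch lay 26 of all 109 opened-only windows, and 9 of the 25 windows with the most opened sites. The chromosome 11 window described above was one. Another, on chromosome 2 from 95000001 to 96000000, held 11 opened sites, all of them between 95661042 and 95983530, directly after an empty stretch of 3.81 Mb. A further chromosome 2 window, from 99000001 to 100000000, held 10 opened sites.

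The remaining windows of this kind showed the same one-sided layout in places. On chromosome 4, from 48000001 to 49000000, 10 opened sites ended at 48751897, where an empty stretch of 3.96 Mb began. On chromosome 20, from 30000001 to 31000000, 9 opened sites lay within 203 kb, the first of them at the end of an empty stretch of 4.20 Mb. Windows on chromosome 6 (56000001 to 57000000) with 10 sites, chromosome 3 (98000001 to 99000000) with 9, chromosome 22 (23000001 to 24000000) with 8 and chromosome 10 (35000001 to 36000000) with 8 completed this set. A window that holds the edge of an empty stretch has less room for sites of either list, and 6 of the 109 opened-only windows and 6 of the 420 mixed windows held such an edge.

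The outermost windows formed a second set, with 7 of the 25. They are the first 5 or last 5 windows of a chromosome, counted from its outermost listed sites. They are called ends below, though they need not lie at the end of the chromosome itself. The last windows of chromosome 17 included one from 79000001 to 80000000 with 11 opened sites, of which 1 had a width of 3894 bp. On chromosome 7 the window from 158000001 to 159000000 held 10 opened sites, 5 of them within 100 kb. At the other end of chromosome 17 the window from 1 to 1000000 held 8, with no p63-closed site before it and none for 3152 kb after it. The window on chromosome 6 from 168000001 to 169000000 and that on chromosome 12 from 2000001 to 3000000 held 8 each. On chromosome 14 listed sites begin late, so windows well inside the chromosome count here. Its adjoining windows from 23000001 to 25000000 held 8 and 9.

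The other 9 of the 25 windows lay away from both places. They include the chromosome 3 window at second place and 3 windows of chromosome 11, which began at 86000001 with 11 opened sites, at 93000001 with 10 and at 94000001 with 9. Chromosome 12 had 2 of them, from 48000001 to 49000000 with 11 sites and from 53000001 to 54000000 with 10. In the window at 53000001, 8 of the 10 sites lay from 53267527 to 53371360. The rest were on chromosome 1 (172000001 to 173000000) with 10 sites, chromosome 10 (104000001 to 105000000) with 8 and chromosome 3 (99000001 to 100000000) with 8. The 25 windows together held 244 opened sites.

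**Figure D2:**
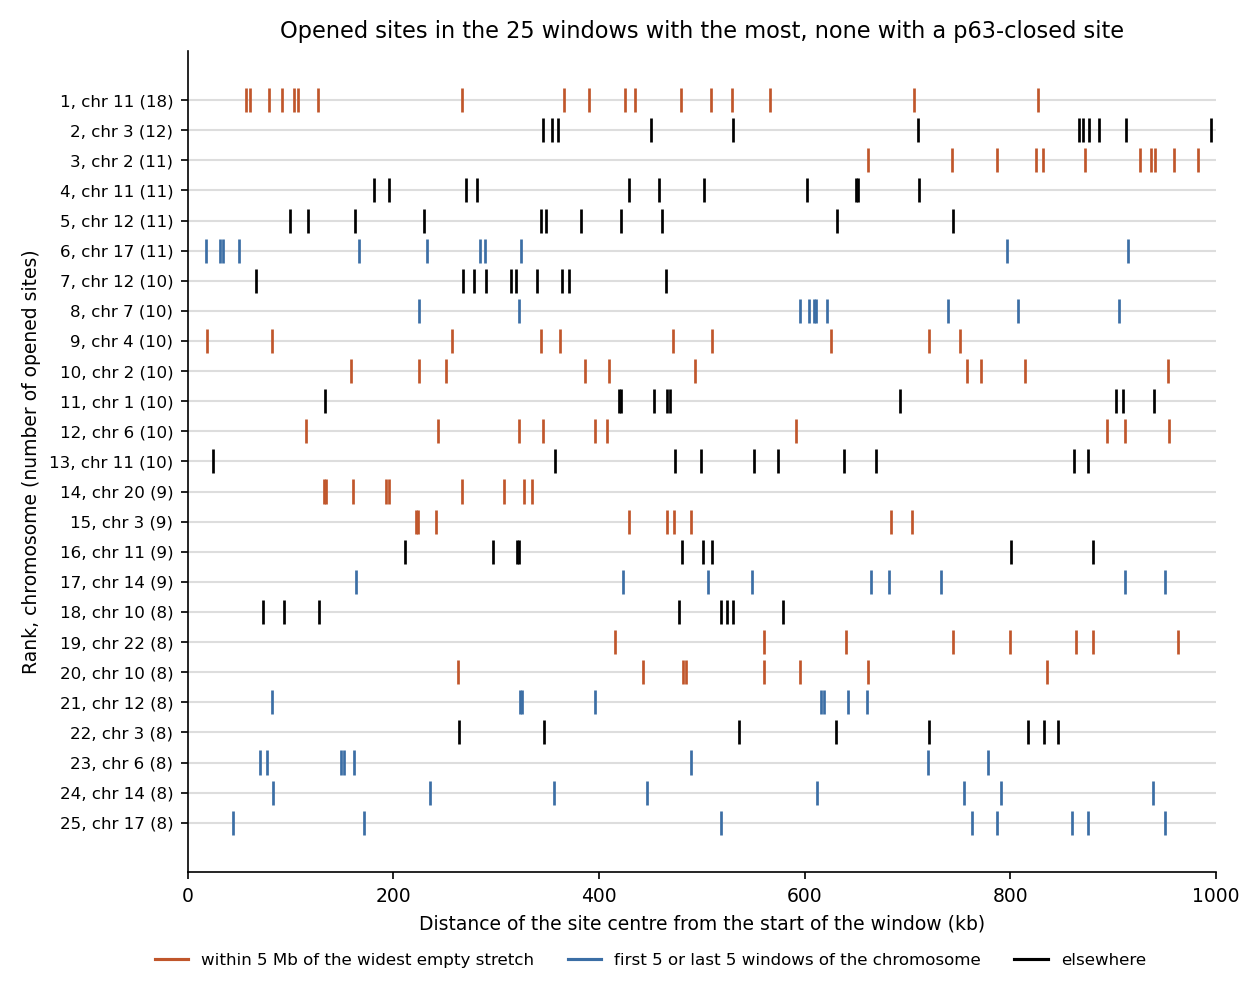
Opened sites (vertical strokes) in the 25 opened-only windows with the most of them, one window per row, ordered by number of sites; the horizontal axis is the distance of the site centre from the start of the window in kb. Rows give rank, chromosome and number of sites, from 18 at the top to 8 at the bottom, and colours give the place on the chromosome. Several rows are filled on one side only, as in the chromosome 2 window with 11 sites, which begins 661.9 kb into the window.

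Opened-only windows were found at these places more often than mixed windows. Within 5 Mb of the widest empty stretch lay 26 of 109 opened-only windows, or 23.9% (exact 95% interval 16.2 to 33.0%), against 47 of 420 mixed windows, or 11.2% (8.34 to 14.6%). Among the first 5 or last 5 windows of a chromosome lay 22 opened-only windows, or 20.2% (13.1 to 28.9%), against 33 mixed windows, or 7.86% (5.47 to 10.9%). Either place held 43.1% of opened-only windows, 18.6% of mixed windows and 15.7% of all 2591 autosomal windows with a listed site. Windows are not replicates and neighbouring windows are not independent, so these differences were not tested, and both places were picked with the lists in view. The opened-only window on chromosome 22 from 18000001 to 19000000, with 5 opened sites, counts under both places.

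The same counts can be read by place. Of windows with 5 or more opened sites, 35.6% held no p63-closed site near the widest empty stretch (26 of 73; 24.7 to 47.7%) and 40.0% among the first 5 or last 5 windows (22 of 55; 27.0 to 54.1%), against 15.3% elsewhere (62 of 404; 12.0 to 19.2%). The share was higher at either place than elsewhere on 17 of the 21 autosomes that could be compared. With the windows that hold an edge left out, 19.4% of opened-only windows and 9.90% of mixed windows lay near the empty stretch. With 2 Mb in place of 5 Mb, 14.7% of opened-only windows and 5.71% of mixed windows lay there. With 10 Mb the shares were 26.6% of opened-only windows and 20.7% of mixed windows. As a ratio the contrast was largest at 2 Mb and smallest at 10 Mb.

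Both lists differed in density at these places, also in windows that were not opened-only. With the opened-only windows left out, windows near the empty stretch held 3.51 opened and 1.77 p63-closed sites on average, and the first 5 or last 5 windows held 3.13 opened and 1.48 p63-closed sites. Windows elsewhere held 2.74 opened and 2.55 p63-closed sites. The p63-closed share of listed sites was 33.6% near the empty stretch, 32.1% in the first 5 or last 5 windows and 48.2% elsewhere.

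**Figure D3:**
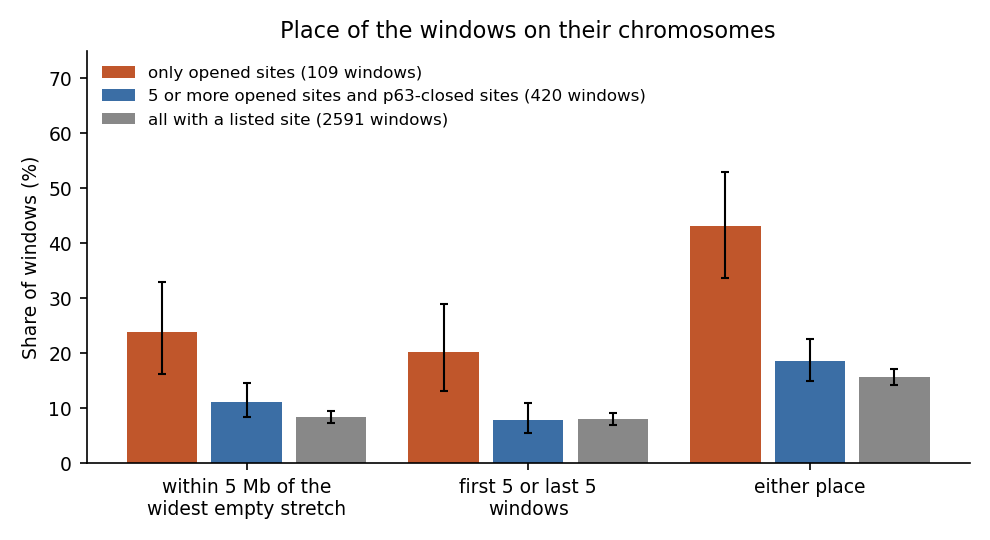
Share of windows (percent, bars, with exact 95% intervals for counting error) that lay within 5 Mb of the widest empty stretch of their chromosome, among its first 5 or last 5 windows, or at either place. First and last windows are counted from the outermost listed sites of the chromosome. Opened-only windows reach 23.9%, 20.2% and 43.1%, against 11.2%, 7.86% and 18.6% of mixed windows.

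The windows beside opened-only windows held a lower share of p63-closed sites than those beside mixed windows, by an amount whose size depends on which neighbours count. A neighbour that is itself opened-only has no p63-closed site by the rule, so such windows were left out on both sides; the remaining neighbours were not used to choose the members. In the 176 adjoining windows with a listed site, 325 of 862 listed sites were then p63-closed, or 37.7% (34.5 to 41.0%). Beside mixed windows, 1601 of 3806 in 712 windows were, or 42.1% (40.5 to 43.7%), and the intervals overlap. The 2 sets of neighbours share 33 windows. Over all autosomes the share was 43.6%. Away from the empty stretches and ends of chromosomes it was 40.1% beside opened-only windows (36.0 to 44.3%) and 44.2% beside mixed windows (42.5 to 46.0%), and these intervals overlap too. With opened-only neighbours counted, the share was 32.0% beside opened-only windows (29.1 to 35.0%) and 39.7% beside mixed windows (38.1 to 41.2%), a difference that the rule itself widens.

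Without opened-only neighbours, adjoining windows held 1.85 p63-closed and 3.05 opened sites on average beside opened-only windows, and 2.25 p63-closed and 3.10 opened sites beside mixed windows. Farther away the share was again computed without opened-only windows. It was lower around opened-only windows at 8 of the 10 distances from 1 to 10 windows, and the intervals did not overlap at 2 of these, 2 windows away (39.6% around opened-only and 44.5% around mixed windows) and 4 windows away (39.3% around opened-only and 45.5% around mixed windows). At 5 windows it was 44.9% around opened-only and 43.9% around mixed windows, and at 10 windows 45.4% around opened-only and 45.2% around mixed windows. The same windows recur at several distances, so the 10 distances are not separate observations. The intervals treat sites as independent and cover counting error only. By chromosome the share beside opened-only windows was the lower one on 15 of 21 autosomes, from counts of 3 to 109 sites each. It was the higher one on chromosomes 1, 6, 9, 13, 19 and 20, and without any one chromosome the pooled share stayed between 36.8% and 38.5%.

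**Figure D4:**
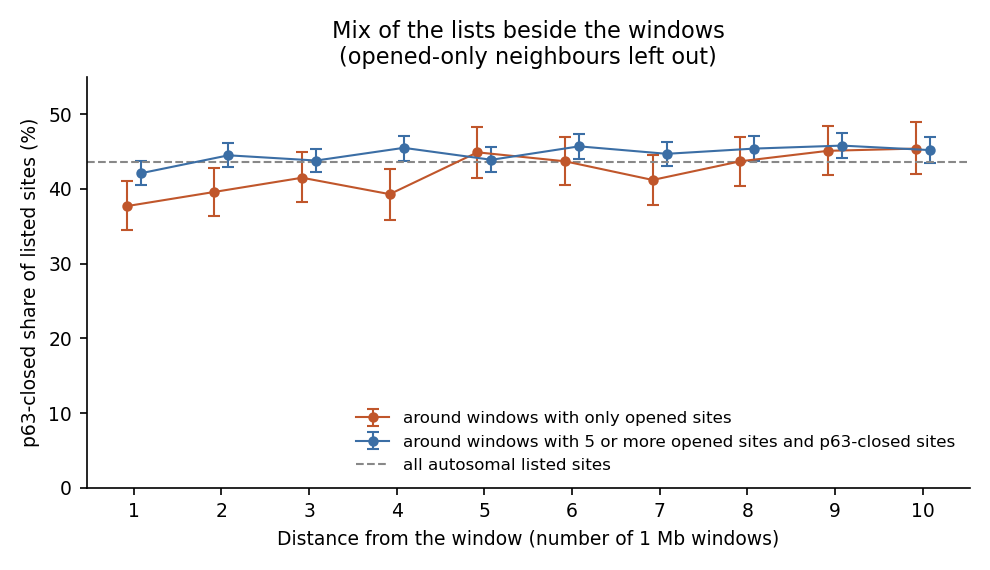
p63-closed share of listed sites (percent) in windows lying 1 to 10 windows away from opened-only windows and from mixed windows, with opened-only windows left out and each window counted once per group; bars are exact 95% intervals for counting error and the dashed line is the autosomal share of 43.6%. The points around opened-only windows are the lower ones at 8 of 10 distances, from 37.7% against 42.1% around mixed windows at 1 window, and most intervals overlap. The same windows recur at several distances.

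Seen from the edges of a window, p63-closed sites also lay farther off, and here too the rule fixes some of the distances: an edge that faces an opened-only window is over 1 Mb from the next p63-closed site by construction, which holds for 21 edges of opened-only windows and 33 edges of mixed windows. Edges with no p63-closed site beyond them on the chromosome, 10 of opened-only and 12 of mixed windows, have no distance and were left out too. Without both kinds, the median distance outward to the nearest p63-closed site was 538 kb from edges of opened-only windows (quartiles 220 and 1137 kb, 187 edges). From edges of mixed windows it was 403 kb (139 and 932 kb, 795 edges). Within 100 kb of the edge a p63-closed site was found for 12.3% of edges of opened-only windows (23 of 187, interval 7.96 to 17.9%). For edges of mixed windows it was 20.4% (162 of 795, interval 17.6 to 23.3%). The intervals overlap only between 17.6 and 17.9%. By the rule, a site in an opened-only window could have a p63-closed site within 50 kb only if it lay that close to an edge. Of the 725 sites, 6 (0.828%) had one, against 29.3% of sites in mixed windows, a contrast that the rule itself makes. Of these 6 sites, 4 belonged to 1 group of 5 opened sites on chromosome 11, from 1947797 to 1991669.

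The stretch free of p63-closed sites around an opened-only window had a median length of 2.57 Mb (quartiles 1.91 and 3.34 Mb) and held a median of 11 opened sites. By the rule, a stretch bounded on both sides is over 1 Mb long and each stretch holds 5 or more opened sites. A stretch with several opened-only windows was counted once for each of them. The values are a description, and no stretches around mixed windows were measured. The longest, 16.1 Mb, was on chromosome 16 from 30597082 to 46703810, but it held 10 opened sites and included the empty stretch of 12.8 Mb. Next came 11.9 Mb on chromosome 2 from 86753022 to 98666728, with 38 opened sites and likewise with the chromosome's empty stretch, of 3.81 Mb. It contained 4 opened-only windows: 88000001 to 89000000 with 7 opened sites, and the adjoining windows from 95000001 to 98000000 with 11, 5 and 7. In 10 windows the free stretch was bounded by a p63-closed site on 1 side only and was measured to the outermost listed site of the chromosome.

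Opened-only windows adjoined each other in 10 places, which held 21 windows and 154 sites. Of 197 windows with a listed site beside opened-only windows, 176 were not opened-only themselves. Beside mixed windows, 712 of 744 were not. Among all 2591 autosomal windows with a listed site, 109 were opened-only. These differences were not tested. The chromosome 2 stretch just named was the one with 3 windows, and the other 9 had 2. On chromosome 11 there were 19 opened sites from 93000001 to 95000000 and 16 from 86000001 to 88000000. On chromosome 3 there were 17 from 98000001 to 100000000, on chromosome 14 17 from 23000001 to 25000000, on chromosome 16 15 from 47000001 to 49000000 and on chromosome 4 15 from 47000001 to 49000000. The smaller ones were on chromosome 1 from 86000001 to 88000000 with 11, on chromosome 7 from 55000001 to 57000000 with 11 and from 1000001 to 3000000 with 10.

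Every autosome except chromosome 15 had an opened-only window. Chromosome 15 held 160 opened and 191 p63-closed sites and was the only autosome with more p63-closed than opened sites. Of its 6 windows with 5 or more opened sites, 0 lacked p63-closed sites, with an exact 95% upper limit of 45.9%. Chromosomes 3, 4 and 7 had 10 opened-only windows each, the most of any autosome. As a share of windows with 5 or more opened sites the figure was 4 of 8 on chromosome 17, 42.9% on chromosome 19 (3 of 7) and 40.0% on chromosome 22 (2 of 5), all from few windows. It was 7.69% on chromosome 8 (3 of 39, interval 1.62 to 20.9%) and 4.17% on chromosome 18 (1 of 24, interval 0.105 to 21.1%). Windows with 5 or more opened sites were many on these chromosomes. The mix of the lists also differed. Chromosome 17 held 175 opened and 148 p63-closed sites, chromosome 19 held 151 and 61, and chromosome 22 held 95 and 28. Chromosome 8 held 537 opened and 304 p63-closed sites, and chromosome 18 held 281 and 149. Whether this mix bears on the shares was not tested. Opened-only windows held 18.2% of the opened sites of chromosome 16, 16.6% of those of chromosome 17 and 16.1% of those of chromosome 11, against 9.35% over all autosomes.

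**Figure D5:**
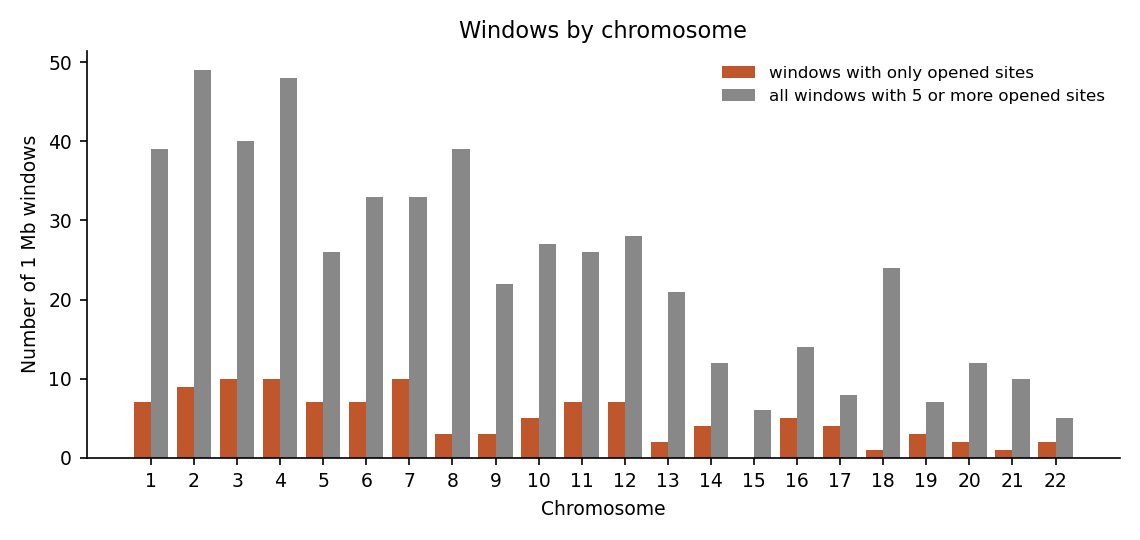
Number of opened-only windows and of all windows with 5 or more opened sites on each autosome. Chromosome 8 has 3 of 39 and chromosome 18 has 1 of 24, while chromosome 17 has 4 of 8 and chromosome 15 has 0 of 6.

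Width was not used by the rule. The median width in opened-only windows was 1656 bp, with quartiles of 1287 and 2095 bp (n = 725 sites; exact 95% interval of the median 1607 to 1718 bp). It was 1603 bp in mixed windows, with quartiles of 1210 and 2081 bp (interval 1568 to 1631 bp), and 1593 bp for the other 4202 autosomal opened sites. The difference is small beside the spread of each group, and the intervals of the first and second group overlap. By chromosome the median was the higher one in opened-only windows on 15 of 21 autosomes. Near an empty stretch it was 1734 bp for 193 sites of opened-only windows and 1644 bp for 340 of mixed windows. In the first 5 or last 5 windows it was 1663 bp for 143 sites of opened-only windows and 1666 bp for 244 of mixed windows. Elsewhere it was 1611 bp for 394 sites of opened-only windows and 1592 bp for 2255 of mixed windows.

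Within opened-only windows the 440 sites with another opened site within 50 kb had a median width of 1594 bp, and the 285 without one 1756 bp. Medians per window ran from 761 bp, in 5 scattered sites on chromosome 7 from 14000001 to 15000000, to 2613 bp, in 8 sites on chromosome 16 from 47000001 to 48000000. Sites over 3000 bp numbered 34, or 4.69%, against 5.02% in mixed windows. The 5 widest were 4333 bp on chromosome 13 (92272345 to 92276677), 4206 bp on chromosome 4 (26227526 to 26231731), the 4089 bp site on chromosome 11 named above, 3990 bp on chromosome 5 (43063894 to 43067883) and 3984 bp on chromosome 4 (124317582 to 124321565). The widest opened site of a mixed window measured 6108 bp.

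Spacing resembled that in mixed windows. Another opened site lay within 50 kb of 60.7% of sites in opened-only windows (57.0 to 64.3%) and of 58.3% in mixed windows (56.5 to 60.1%), and within 10 kb of 21.7% in opened-only and 20.3% in mixed windows. The other autosomal opened sites, which lie in windows with fewer of them, gave 24.7% within 50 kb. From first to last site the sites of a window spanned a median of 684 kb in opened-only and 669 kb in mixed windows; with exactly 5 opened sites the medians were 625 kb in opened-only windows (45 windows) and 628 kb in mixed windows (151 windows). The most compact windows were on chromosome 11 from 1000001 to 2000000, with 5 sites in 41.6 kb, on chromosome 10 from 1 to 1000000, with 5 in 90.9 kb, and on chromosome 7 from 56000001 to 57000000, with 6 in 99.3 kb.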

How the data were processed

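Chromatin accessibility (ATAC-seq) was measured in 8 samples, and the authors deposited 2 lists of sites as start and end positions with a numbered name. Per the submitters' processing notes the tools were FastQC, Bowtie2, SAMtools, MACS2 and DESeq2, on hg19 (GRCh37); the sources used here do not give versions, thresholds or whether replicates were pooled. Per the labels' protocols, libraries were sequenced deeply only after passing a score for enrichment at transcription start sites. Since only called sites are listed, a site missing from a list is not shown to be unchanged.

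Each site was assigned by its centre to fixed 1 Mb windows. Shares carry exact Clopper-Pearson intervals and medians exact order-statistic intervals, at 95%, for counting error only. Overlapping intervals do not show that the values are equal. No test was made, as the lists hold no value per sample. Windows and sites are named by a rule: the 25 windows with the most opened sites, adjoining windows and the 5 widest sites. The 5 windows with the longest stretches free of p63-closed sites around them also count, all in the chromosome 16 and chromosome 2 stretches. Among windows with equal numbers of opened sites, the smaller distance from first to last site centre ranked higher. Other windows are named for an extreme value and were chosen after their values were seen. The rule, windows and lists were chosen with earlier results of these data known. The code that applies the window rule was run on simulated windows of known content, which is a check of the code only. Scripts ran in Python 3.11.15 with pandas 2.3.3 and numpy 2.4.6; intervals came from scipy 1.17.1 and figures from matplotlib 3.10.9.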

Additional observations from a re-analysis of the deposited data

How the results depend on the processing

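No paired analysis was possible because neither list carries a value for any single sample; replicates were not left out on the same ground. Leaving out opened-only neighbours, leaving out windows near empty stretches and ends, and both at once were added with the lists in view. Of 49 alternative values, 31 stayed within 1.5 times the count or inside the interval of the main value and 18 moved; several moved by construction, as a looser or stricter rule takes in more or fewer windows. The 109 opened-only windows became 178 with a minimum of 4 opened sites, 64 with 6, 237 with 1 p63-closed site allowed and 62 without the windows near empty stretches and ends. Their 725 sites became 1579 with 1 p63-closed site allowed and 394 without those places. The share of 20.6% was 33.7% in windows of 500 kb and 44.8% with 1 p63-closed site allowed. The median width of 1656 bp was 1787 bp with sites within 10 kb joined, which makes them wider. The p63-closed share in adjoining windows, 32.0%, was 27.6% with windows of 500 kb, 28.5% with chromosome X added, 37.7% without opened-only neighbours, 36.5% without empty stretches and ends and 40.1% without either. The share of sites with an opened neighbour within 50 kb, 60.7%, was 55.1% with a minimum of 4, 65.2% with 6, 74.9% in windows of 500 kb and 52.7% with close sites joined. Leaving out opened-only neighbours can only raise the adjoining share, as they hold no p63-closed site by the rule. The cause of the other moves in the adjoining share was not tested. Depth is unknown, so how far it limits the lists was not assessed.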
